A study of Chlorocebus sabaeus with 45 samples.

Results

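The receptors for the growth factors that drive blood cell formation were followed in the blood of relocated vervet monkeys. The set named EPOR, CSF3R, CSF2RA, CSF2RB, IL3RA, KIT and FLT3, and JAK2, a kinase that several of them share. Members were chosen by gene symbol. Of the 8 named genes, 6 had a row among the 33994 genes listed, and all 6 were among the 18753 genes that passed the filter on low values and were tested. CSF2RA and IL3RA had no row under their symbols or under their RefSeq gene identifiers and were not analysed here.

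Whole-blood RNA came from 15 wild-born juvenile male Chlorocebus sabaeus, and each animal was sampled at 3 time points, which gave 45 libraries. On day 0 the animals were sampled in the field under ketamine and xylazine. On days 3 and 14 they lived in individual cages in quarantine and were sampled under dexmedetomidine and midazolam. No treated and untreated animals ran in parallel, so in comparisons with day 0 time, place, housing, sedation and earlier blood draws cannot be told apart. Blood was also drawn between day 3 and day 14, so in that comparison time and repeated draws cannot be told apart. The animals came from different troops and carried no engineered allele, and the replicates are separate animals.

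Blood growth factor receptors come in 2 forms. EPOR, CSF3R and CSF2RB belong to the cytokine receptor family, whose members have no kinase of their own and signal through JAK kinases bound to their tails, which then activate STAT proteins. KIT and FLT3 are receptor tyrosine kinases and phosphorylate themselves when their ligands bind. In circulating blood EPOR RNA is known from immature red cells, CSF3R and CSF2RB from granulocytes and monocytes, KIT from progenitors and mast cells or basophils, and FLT3 from progenitors and dendritic cells.

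EPOR and FLT3 rose after day 0, CSF3R and CSF2RB fell by day 14, and neither KIT nor JAK2 passed the test at any time point. By day 3, 2 of the 6 members were called against day 0 (adjusted p-value below 0.05), both of them higher, beside 12.4% of all tested genes (6.12% higher and 6.32% lower). By day 14 it was 4 members, 2 higher and 2 lower, beside 36.0% of all tested genes (18.8% higher and 17.3% lower). Between day 3 and day 14 limma called 0 members, beside 13.5% of all genes (8.51% higher and 5.04% lower), and 0 had an unadjusted p-value under 0.05. The fit behind these counts leaves out the pairing of samples by animal. A model with the animal as a replicate block called 3, 4 and 0 members in these comparisons, with CSF3R added on day 3. It called 19.6%, 44.3% and 24.0% of all genes. The voom method of limma on recovered fragment counts, chosen after the data were seen, called 2, 4 and 0, beside 12.5%, 34.9% and 15.2%. Adjusted for RNA integrity, the 2 calls on day 14 were both higher and those for CSF3R and CSF2RB were lost. By the study's listing, RNA integrity was higher on day 14 than on day 0 in most animals and lower in none. The covariate is therefore tied to the day, and a call lost with it cannot tell RNA quality from time. Without TMM 1 was higher and 3 lower on day 14, and 3 were lower between day 3 and day 14. A trial fit with edgeR on the same fragments, whose values are not reported here, differed from these in also calling CSF3R and CSF2RB on day 3 and EPOR between day 3 and day 14. The median log2 fold change of the 6 members was 0.24 on day 3 and 0.27 on day 14, and that of all tested genes was 0.01 and −0.02. With 6 members these shares are coarse, and the members did not move together.

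Levels are given as scaled FPKM, which are fragments per kilobase of gene relative to the library's total, after TMM scaling (a trimmed mean of ratios) between libraries, so that genes can be compared per length. Changes are log2 fold changes with standard errors from limma on log2(scaled FPKM + 0.1), and p-values are adjusted by Benjamini-Hochberg over all tested genes. Fold changes on this scale understate those of low genes. Between 13216277 and 31469334 fragments per library fell on genes, and the members rested on 13 fragments (EPOR) to 31371 fragments (CSF3R) in a library. In whole blood, fewer cells of a type and less RNA per cell cannot be told apart.

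**Figure D1:**
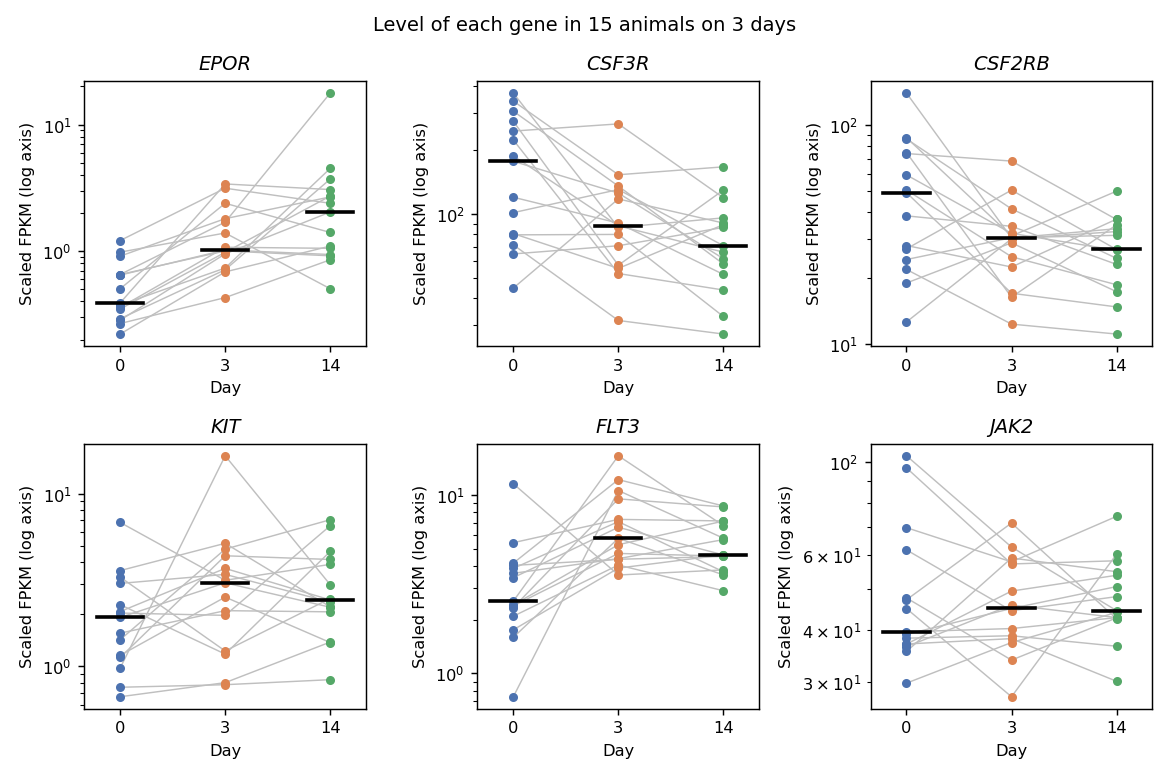
Scaled FPKM of the 6 measured genes (log axis) on days 0, 3 and 14; each point is 1 of 15 animals, grey lines join the samples of an animal and black bars are medians. The EPOR median goes from 0.390 to 2.03 between day 0 and day 14 and the CSF3R median from 177 to 70.8, while points of all time points overlap in every panel.

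EPOR encodes the erythropoietin receptor, which keeps red cell precursors alive and dividing. On day 0 its level ran from 0.221 to 1.21 scaled FPKM with a median of 0.390, on day 3 from 0.429 to 3.39 with a median of 1.02, and on day 14 from 0.504 to 17.7 with a median of 2.03. The time points overlapped, although 6 animals on day 3 and 9 animals on day 14 lay above the highest day 0 sample. Its mean went from 0.540 ± 0.298 (SD, n = 15) to 1.43 ± 0.901 on day 3, a log2 fold change of 1.18 ± 0.32 (SE) that was positive in 15 of 15 animals (adjusted p = 0.0126, limma). The mean was 3.04 ± 4.23 on day 14, with a log2 fold change of 1.82 ± 0.32 (adjusted p = 2.54e-05, limma), or 3.53-fold, and 14 animals were higher than on day 0. Animal 13 was the exception.

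The further rise of EPOR from day 3 to day 14 was less certain. The log2 fold change was 0.64 ± 0.32 (adjusted p = 0.167, limma), and 8 animals were higher and 7 lower. With the replicate block the adjusted p-value was 0.0887 (limma). Animal 15 held the highest EPOR level on day 14, 17.7 scaled FPKM, and also ranked 1 of 15 for the mean of the erythroid marker genes on that day. Without animal 15 the rise from day 0 to day 14 was 1.63, the lowest value over the 15 fits that omit an animal. With a pseudocount of 1 the day 3 change was 0.60 and missed the threshold (adjusted p = 0.0611, limma).

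Red cell markers rose alongside EPOR. All 15 tested genes of the erythroid list were higher on day 14, with a median log2 fold change of 2.70, and 10 were higher on day 3, with a median of 1.47. The 2 most abundant were ALAS2, the first enzyme of heme synthesis in red cells, which went from 6281 ± 5963 to 27584 ± 14151 scaled FPKM, and FECH, the last enzyme of that pathway, which went from 758 ± 641 to 3710 ± 2351. The summed level of the list ran from 576 to 27150 scaled FPKM on day 0, from 4409 to 49521 on day 3 and from 8958 to 77318 on day 14, and no gene of the list was at 0 in all samples of a day. The mean log2 level of these genes rose by 1.55 ± 1.12 (SD, n = 15) on day 3 and 2.60 ± 1.79 on day 14, each in 14 of 15 animals. Their part in the change of EPOR was not tested.

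Within each time point, animals with more EPOR RNA also had more erythroid marker RNA. Pearson's r between log2 EPOR and the mean log2 level of the 15 erythroid genes was 0.83 on day 0, 0.76 on day 3 and 0.82 on day 14, over 15 animals each (permutation p = 1.2e-04, 0.00126 and 6e-05, adjusted over 21 such tests 6.3e-04, 0.00378 and 4.2e-04). Spearman's rho was 0.85, 0.78 and 0.82 (permutation p = 1.3e-04, 8.9e-04 and 3.6e-04). Without the 2 animals farthest from the median of the erythroid measure, r was 0.81, 0.66 and 0.78. Both measures come from the same libraries. The 3 genes whose log2 levels were most like those of EPOR, among 10939 genes with a mean of at least 5 CPM (fragment counts scaled to the library's total), were DMTN (r = 0.88 over 45 samples after removal of the time point means, 0.93 before), PNKD (0.87 and 0.92) and ANK1 (0.85 and 0.92). DMTN and ANK1 encode proteins of the red cell membrane skeleton.

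**Figure D2:**
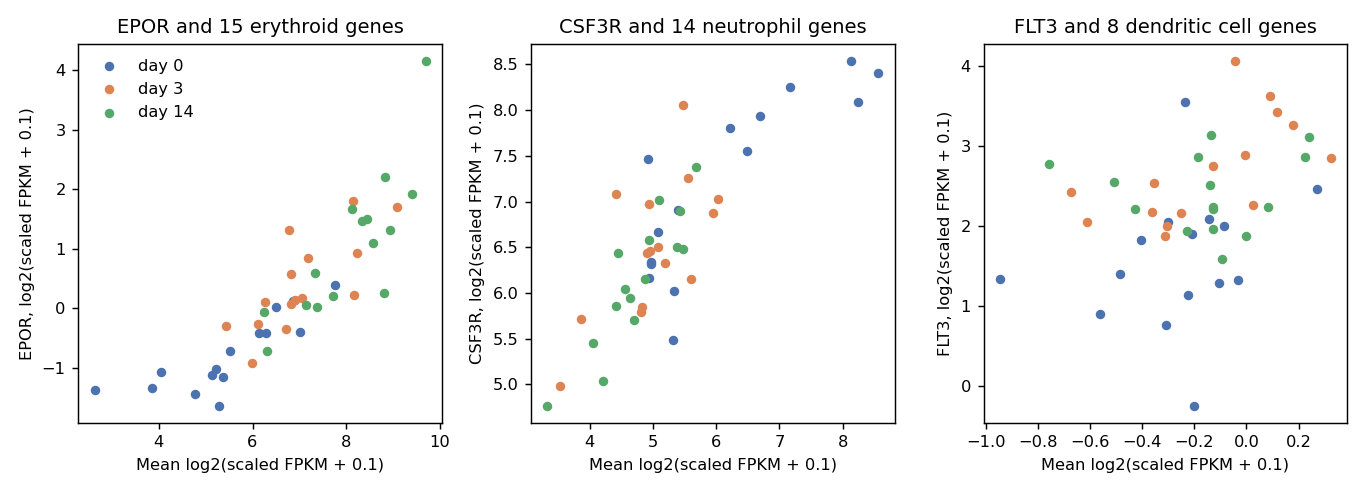
Log2(scaled FPKM + 0.1) of EPOR, CSF3R and FLT3 against the mean of the same measure over 15 erythroid, 14 neutrophil and 8 classical dendritic cell genes; each point is 1 of 45 samples, coloured by day. EPOR climbs with its marker list within every day (r from 0.76 to 0.83) and CSF3R on days 0 and 14 (r = 0.84 and 0.89). The day 3 relation of CSF3R (r = 0.66) was weaker without 2 animals (r = 0.34), and FLT3 climbs on day 3 (r = 0.62).

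CSF3R encodes the receptor for granulocyte colony-stimulating factor, which controls neutrophil production and release. It was the most abundant member per length at each time point. On day 0 its level ran from 44.7 to 371 scaled FPKM with a median of 177, on day 3 from 31.5 to 265 with a median of 87.8, and on day 14 from 27.2 to 167 with a median of 70.8. All 3 time points overlapped. The mean went from 179 ± 109 (SD, n = 15) on day 0 to 103 ± 57.1 on day 3 and 79.3 ± 38.0 on day 14. On day 14 the log2 fold change was −1.05 ± 0.29 (adjusted p = 0.00434, limma), or 2.06-fold lower, and 12 of 15 animals were lower than on day 0, with animals 1, 5 and 6 higher.

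Whether the fall of CSF3R on day 3 was called depended on the model. Its log2 fold change was −0.70 ± 0.29 (adjusted p = 0.110, limma), lower in 10 of 15 animals. Under the replicate block the same change had an adjusted p-value of 0.0256 (limma), and without animal 5 it was −0.84 (adjusted p = 0.0493, limma). Adjusted for RNA integrity, a measure of RNA quality, the day 14 change was −0.83 and no longer passed (adjusted p = 0.0819, limma), whereas block and RNA integrity together gave −0.88 (adjusted p = 0.0290, limma). For day 3 that combined model gave −0.62 and did not pass (adjusted p = 0.0792, limma). Between day 3 and day 14 CSF3R changed by −0.35 ± 0.29 (adjusted p = 0.441, limma), and by −0.73 without TMM (adjusted p = 0.0288, limma).

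CSF2RB encodes the common beta chain that pairs with the alpha chains for GM-CSF, interleukin 3 and interleukin 5. Its level ran from 12.6 to 140 scaled FPKM on day 0 (median 49.1), from 12.3 to 68.4 on day 3 (median 30.5) and from 11.1 to 49.9 on day 14 (median 27.0). The later ranges lay almost wholly inside that of day 0. The mean went from 52.9 ± 34.8 (SD, n = 15) to 31.4 ± 14.1 on day 3, which missed the threshold (log2 fold change −0.58 ± 0.26, adjusted p = 0.149, limma). On day 14 the mean was 28.0 ± 10.2 and the change −0.72 ± 0.26 (adjusted p = 0.0288, limma), lower in 12 of 15 animals. The same 3 animals as for CSF3R were higher. The call on day 14 was lost without animal 2 (−0.64, adjusted p = 0.0658) or animal 11 (−0.62, adjusted p = 0.0617), after adjustment for RNA integrity (−0.52, adjusted p = 0.248) and with that and the block together (−0.55, adjusted p = 0.167), all from limma.

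The 2 granulocyte receptors varied together. Over the 45 samples, after removal of the time point means, CSF3R and CSF2RB correlated with r = 0.95, and each was among the 3 genes most like the other. LIMK2, a kinase of actin regulation, was in both sets (r = 0.94 with CSF3R and 0.96 with CSF2RB), with CREB5 (0.94) for CSF3R and DENND3 (0.94) for CSF2RB. CSF3R was higher than CSF2RB in 15 of 15 animals on day 0. EPOR correlated with CSF3R by 0.18 over the same samples.

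Neutrophil markers fell alongside these receptors. Of 14 tested neutrophil genes, 13 were lower on day 14 (median log2 fold change −1.38) and 9 on day 3 (median −1.15). The 2 most abundant were S100A9 and S100A8, which encode the subunits of calprotectin. S100A9 went from 8206 ± 11356 to 1569 ± 874 scaled FPKM on day 14, and S100A8, the 1 gene not called, from 1087 ± 1707 to 273 ± 177. Adjusted for RNA integrity, 8 of the 14 were lower on day 14 and 4 on day 3. The summed level of the list ran from 1651 to 44828 scaled FPKM on day 0, from 758 to 7404 on day 3 and from 717 to 4868 on day 14, with no gene at 0 in all samples of a day. Markers of neutrophil precursors were lower for 2 of 11 genes on day 14 (5 without TMM), near the 17.3% of all tested genes, and for 1 of 11 on day 3, when the median of the list was 0.44. The part of these cells in the changes of CSF3R and CSF2RB was not tested.

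CSF3R followed the mean of the neutrophil genes with r = 0.84 on day 0, 0.66 on day 3 and 0.89 on day 14 (15 animals each, permutation p = 1.7e-04, 0.00845 and 2e-05, adjusted 7.1e-04, 0.0197 and 2.1e-04). Spearman's rho was 0.79, 0.56 and 0.88 (permutation p = 8.7e-04, 0.0316 and 5e-05), and the day 3 rho did not pass after adjustment (0.0738). For CSF2RB r was 0.81, 0.69 and 0.93 (permutation p = 2.8e-04, 0.00540 and 1e-05, adjusted 9.8e-04, 0.0142 and 2.1e-04), and rho 0.76, 0.55 and 0.93 (permutation p = 0.00170, 0.0364 and 1e-05), of which that on day 3 did not pass after adjustment (0.0764). The value 1e-05 is the smallest that the 100000 permutations can give. Without the 2 animals farthest from the median of the neutrophil measure, r on day 3 dropped to 0.34 for CSF3R and 0.38 for CSF2RB. Leaving out those animals also narrows the range of the measure, which by itself can lower r. On day 0 and day 14 it stayed between 0.79 and 0.85.

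KIT encodes the receptor for stem cell factor, which progenitors and mast cells need. Its level ran from 0.666 to 6.80 scaled FPKM on day 0 (median 1.92), from 0.782 to 16.6 on day 3 (median 3.04) and from 0.836 to 7.05 on day 14 (median 2.42). The ranges overlapped almost entirely. The log2 fold change was 0.53 ± 0.33 on day 3 (adjusted p = 0.316, limma, 95% confidence interval −0.13 to 1.20) and 0.54 ± 0.33 on day 14 (adjusted p = 0.206, limma, −0.13 to 1.20), and on both days 11 of 15 animals had a higher value than on day 0. These intervals leave room for a doubling. The day 14 change was 0.13 without TMM (adjusted p = 0.735, limma) and 0.90 with RNA integrity as a covariate (adjusted p = 0.0885, limma, 95% confidence interval 0.13 to 1.67), without passing in either. Animal 6 held the highest level on day 3, and it ranked 1 of 15 that day for the mean of the basophil and mast cell genes and 1 of 15 for the eosinophil genes. Without animal 6 the day 3 change was 0.28 (adjusted p = 0.631, limma).

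Basophil and mast cell markers were higher on day 14 for 5 of 11 tested genes, all calls in that direction, beside 18.8% of all tested genes, with a median log2 fold change of 0.63. On day 3 it was 1 of 11. CPA3, a mast cell protease, went from 19.5 ± 10.7 to 39.9 ± 19.3 scaled FPKM, and FCER1A, a chain of the high-affinity IgE receptor, reached 37.8 ± 18.3 on day 14 (log2 fold change 0.84 ± 0.27, adjusted p = 0.0118, limma). Without TMM scaling limma called 0 of the 11, with 1 at an unadjusted p-value under 0.05, and the median was 0.27. The summed level of the list ran from 34.4 to 118 scaled FPKM on day 0, from 21.4 to 205 on day 3 and from 56.5 to 217 on day 14. KIT correlated with the mean of these genes by r = −0.28, 0.49 and 0.20 on days 0, 3 and 14 (adjusted permutation p = 0.455, 0.122 and 0.574), and with that of the stem and progenitor genes by 0.29, 0.19 and 0.27 (adjusted permutation p = 0.455, 0.574 and 0.455). The genes most like KIT over the 45 samples were F5 (r = 0.70 after removal of the time point means), IL1RL1 (0.65) and EMR3 (0.64).

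FLT3 encodes the receptor for the FLT3 ligand, which drives early progenitors and dendritic cells. On day 0 its level ran from 0.740 to 11.6 scaled FPKM with a median of 2.55, on day 3 from 3.57 to 16.6 with a median of 5.73, and on day 14 from 2.91 to 8.70 with a median of 4.62. Animal 14 held the day 0 maximum. The time points also overlapped apart from it, as the second highest day 0 level, 5.41, was above the day 14 median and the lowest day 3 level. The mean went from 3.47 ± 2.55 (SD, n = 15) to 7.07 ± 3.72 on day 3, a log2 fold change of 1.11 ± 0.24 (adjusted p = 0.00238, limma), or 2.15-fold, with 14 of 15 animals higher. On day 14 it was 5.47 ± 1.83, a log2 fold change of 0.82 ± 0.24 (adjusted p = 0.00656, limma), with 13 animals higher. Animal 14 was lower at both later time points, and over the fits that omit an animal the changes ran from 0.92 (without animal 2) to 1.29 (without animal 14) on day 3 and from 0.68 to 0.97 on day 14, without the same animals.

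The FLT3 call on day 14 depended on the scaling. Without TMM the change from day 0 was 0.41 (adjusted p = 0.196, limma), and that from day 3 to day 14, −0.28 ± 0.24 with TMM (adjusted p = 0.445), was −0.66 (adjusted p = 0.0452, limma). The median change of all tested genes on day 14 was then −0.36. On day 3 FLT3 passed with and without TMM.

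Markers of classical dendritic cells and of stem and progenitor cells are given beside FLT3, which both kinds of cell express. Of 8 tested dendritic cell genes limma called 0 on either later day, with 1 at an unadjusted p-value under 0.05 each time, while voom called 0 on day 3 and 1, higher, on day 14. Without TMM 1 was lower on day 14. Their mean log2 level differed from day 0 by 0.11 ± 0.25 (SD, n = 15) on day 3, that of the stem and progenitor genes by 0.28 ± 0.28 and that of the plasmacytoid dendritic cell genes by 0.23 ± 0.24, each of the last 2 in 13 of 15 animals. Their part in the change of FLT3 was not tested. CD1C, the most abundant of the 8 dendritic cell genes, was at 46.3 ± 14.6 scaled FPKM on day 0, 41.2 ± 18.4 on day 3 and 42.5 ± 18.2 on day 14. Of 12 tested stem and progenitor genes 3 were higher on day 3, namely CD34, EGFL7 and ANGPT1, and 3 on day 14, namely SPINK2, EGFL7 and ANGPT1, beside 6.12% and 18.8% of all tested genes higher on these days. With the replicate block 5 were higher on day 14, and adjusted for RNA integrity 1. ANGPT1 is also known from platelets, and all 9 tested platelet genes were higher on day 3. Without TMM, 3 of the 12 stem and progenitor genes were higher on day 3, and 1 was higher and 2 lower on day 14. CD34 itself was near the floor, with 0.0507 ± 0.0550 scaled FPKM on day 0 and 0.120 ± 0.0593 on day 3. FLT3 correlated with the dendritic cell genes by r = 0.25 on day 0, 0.62 on day 3 and 0.05 on day 14 (adjusted permutation p = 0.458, 0.0296 and 0.868), with a rho of 0.65 on day 3 (adjusted permutation p = 0.0271), and without the 2 farthest animals r on day 3 was 0.63. Its relation to the progenitor genes did not pass on any day (r = 0.18, 0.36 and 0.09). The genes most like FLT3 were the gene named CPM, which encodes carboxypeptidase M (r = 0.66 after removal of the time point means), UNC13B (0.61) and SLC1A4 (0.59).

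JAK2 is the kinase through which EPOR, CSF2RB and, in part, CSF3R signal. Its level ran from 29.9 to 103 scaled FPKM on day 0 (median 39.5), from 27.7 to 71.5 on day 3 (median 44.9) and from 30.2 to 74.2 on day 14 (median 44.4). The later ranges lay largely within that of day 0. The log2 fold change was −0.05 ± 0.15 on day 3 (adjusted p = 0.890, limma, 95% confidence interval −0.35 to 0.25) and −0.0016 ± 0.15 on day 14 (adjusted p = 0.995, limma, −0.30 to 0.30) relative to the typical gene. Without TMM, JAK2 was lower on day 14 by −0.43 (adjusted p = 0.00137, limma), close to the shift of the median gene. The genes most like JAK2 were STXBP3 (r = 0.89 after removal of the time point means), RB1CC1 (0.88) and PICALM (0.86).

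**Figure D3:**
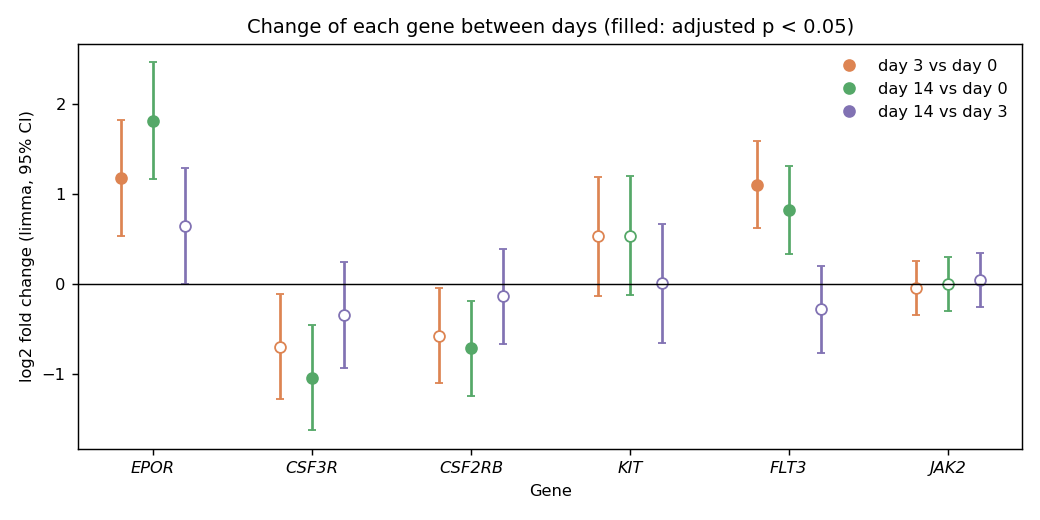
Log2 fold changes of the 6 genes in the 3 comparisons between days, with 95% confidence intervals from limma (n = 15 per day); filled circles have an adjusted p-value under 0.05. EPOR and FLT3 are filled above 0 on both later days (EPOR 1.18 and 1.82, FLT3 1.11 and 0.82), CSF3R and CSF2RB are filled below 0 on day 14 (−1.05 and −0.72), and KIT and JAK2 have intervals across 0.

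Ratios of 2 members within a library do not depend on scaling between libraries. Changes within animals were tested with exact sign flips (two-sided), with p-values adjusted over 12 tests (4 pairs in 3 comparisons). The log2 ratio of EPOR to CSF3R went from −8.01 ± 1.18 (SD, n = 15) on day 0 to −6.11 ± 1.13 on day 3 and −5.10 ± 1.04 on day 14. The rise was 1.90 ± 1.09 on day 3, in 14 of 15 animals (exact sign-flip test, adjusted p = 4.88e-04), and 2.91 ± 1.62 on day 14, in 15 of 15 animals (adjusted p = 3.66e-04 from an unadjusted 6.1e-05, the smallest p the exact test can give). The rise from day 3 to day 14 was 1.01 ± 1.66, in 10 animals (exact adjusted p = 0.0603). By day 14 EPOR had gained on CSF3R in each of the 15 animals.

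Measured against JAK2, EPOR rose and CSF3R fell. The log2 ratio of EPOR to JAK2 rose by 1.25 ± 0.728 on day 3, in 15 of 15 animals, and by 1.87 ± 1.43 on day 14, in 14 (exact sign-flip test, adjusted p = 3.66e-04 and 7.32e-04). That of CSF3R to JAK2 changed by −0.65 ± 0.811 on day 3, lower in 13 animals, and by −1.04 ± 0.857 on day 14, lower in 12 (exact adjusted p = 0.0151 and 0.00234). The ratio of KIT to FLT3, the receptor tyrosine kinases, changed by −0.57 ± 2.09 on day 3 and −0.28 ± 1.41 on day 14 (exact adjusted p = 0.370 and 0.468), lower in 10 animals each time.

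**Figure D4:**
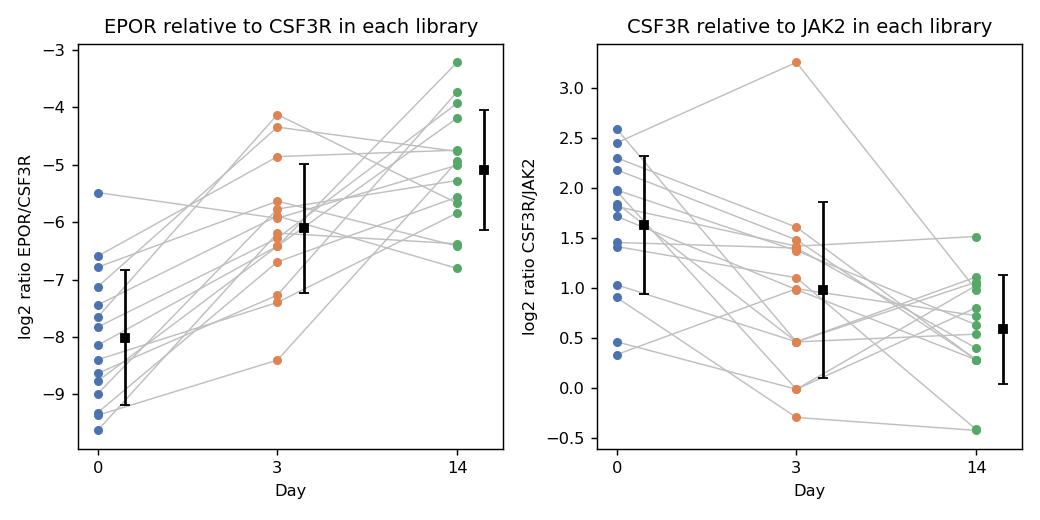
Log2 ratio of EPOR to CSF3R (left) and of CSF3R to JAK2 (right) in each library by day, from FPKM + 0.1; points are 15 animals joined by grey lines, and black squares with bars are the mean and SD. The first ratio climbs from a mean of −8.01 to −5.10 and the second falls from 1.63 to 0.58.

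The order of the members by level was much the same on the 3 days. On day 0 the order of mean scaled FPKM was CSF3R (179), CSF2RB (52.9), JAK2 (50.9), FLT3 (3.47), KIT (2.18) and EPOR (0.540). Neither CSF2RB and JAK2 (exact sign-flip test over 15 animals, adjusted p = 0.430 over 15 tests) nor FLT3 and KIT (adjusted p = 0.0708) differed beyond their spread. On day 3 the order was CSF3R, JAK2, CSF2RB, FLT3, KIT and EPOR, and every neighbouring pair differed, with the largest adjusted p of 0.0112 for KIT and EPOR. On day 14 the order was that of day 3, but KIT, at 3.10 ± 1.82, and EPOR, at 3.04 ± 4.23, were no longer separated (exact adjusted p = 0.231), with KIT above EPOR in 9 of 15 animals. Animal 15, at 17.7, raised the EPOR mean, and the medians were 2.42 for KIT and 2.03 for EPOR.

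Most ligands of these receptors were at low levels in blood RNA, with FLT3LG an exception. Of 9 ligand genes, 3 passed the filter, FLT3LG, CSF1 and IL5, and limma and voom called 0 on day 3 and on day 14, with 0 at an unadjusted p-value under 0.05. EPO, CSF3, CSF2, IL3, KITLG and THPO, which encode erythropoietin, granulocyte and granulocyte-macrophage colony-stimulating factors, interleukin 3, stem cell factor and thrombopoietin, each had a mean of at most 0.0625 scaled FPKM on all 3 days. Kidney, liver and stroma are known sources of several of them. FLT3LG, the ligand of FLT3, was at 6.61 ± 0.966 scaled FPKM on day 0, 7.80 ± 2.40 on day 3 and 6.77 ± 1.11 on day 14 (adjusted p = 0.297 and 0.858 against day 0, limma).

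Among 9 other cytokine receptors, 1 was higher and 2 lower on day 3, and the 3 called on day 14 were all lower (4 without TMM and 1 adjusted for RNA integrity, also lower). The 3 of 9 on day 14 are near the 36.0% of all tested genes called on that day. On day 3, 12.4% of all tested genes were called (6.12% higher and 6.32% lower). Without TMM, 0 of the 9 were higher and 1 was lower on day 3. CSF1R, the macrophage colony-stimulating factor receptor of monocytes, rose on day 3 from 20.1 ± 6.80 to 30.1 ± 8.27 scaled FPKM (log2 fold change 0.61 ± 0.16, adjusted p = 0.0114, limma, 13 of 15 animals), with 0.57 and an adjusted p of 0.0564 without TMM. IL6R, the interleukin 6 receptor, went from 64.6 ± 26.6 to 39.1 ± 6.91 on day 14 (−0.64 ± 0.15, adjusted p = 8.3e-04), IFNGR1, an interferon gamma receptor chain, from 225 ± 168 to 112 ± 36.4 (−0.77 ± 0.24, adjusted p = 0.00850), and IL6ST, the shared gp130 chain, from 97.6 ± 18.1 to 76.9 ± 17.8 (−0.36 ± 0.12, adjusted p = 0.0203), all by limma.

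Downstream of the receptors, most of the genes called on day 14 in the next 2 lists were lower. Of 8 JAK and STAT partners of JAK2, 3 were called on day 14, near the 36.0% of all tested genes, all lower: STAT5B fell by 0.57 on the log2 scale (SE 0.15, adjusted p = 0.00227, limma), STAT3 by 0.44 (SE 0.17, adjusted p = 0.0335) and TYK2 by 0.32 (SE 0.12, adjusted p = 0.0292). Adjusted for RNA integrity, limma called 0 of the 8, with 2 at an unadjusted p-value under 0.05, and without TMM scaling all 8 were lower. Of 15 adaptors and kinases, 2 were higher and 7 lower (1 and 13 without TMM, 2 and 4 adjusted for RNA integrity). SHC1 and GAB1, which link receptors to the RAS and PI3K pathways, rose by 0.39 and 0.97 with TMM, but SHC1 was at −0.03 without it, while GAB2, a related adaptor, fell by 1.22, SOS1, a RAS activator, by 0.60 and PIK3CG, a leukocyte PI3K subunit, by 0.60, the last in 15 of 15 animals. The median log2 fold change was −0.15 for the JAK and STAT list and −0.38 for the adaptors, beside −0.02 for all tested genes.

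Several negative regulators were lower as well. Of 11 negative regulators 5 were called on day 14, all lower, with a median of −0.31, beside 17.3% of all tested genes lower (9 lower without TMM and 4 adjusted for RNA integrity). SOCS3, a STAT3-induced inhibitor of CSF3R signalling, went from 33.4 ± 31.8 to 6.60 ± 2.80 scaled FPKM (log2 fold change −1.85 ± 0.32, adjusted p = 2.19e-05, limma, lower in 12 of 15 animals). CBL, a ubiquitin ligase that marks activated KIT and FLT3 for degradation, went from 26.8 ± 12.2 to 11.6 ± 3.13 (−1.12 ± 0.19, adjusted p = 1.09e-05, 13 animals), and PIAS1, an inhibitor of STAT proteins, from 32.6 ± 8.69 to 23.6 ± 2.82 (−0.43 ± 0.09, adjusted p = 2.5e-04, 12 animals). Neutrophil markers were lower in the same comparison (13 of 14, median −1.38), and their part in these falls was not tested.

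Known targets of STAT5 and growth factors included calls in both directions. Of 10 tested genes 3 were higher and 2 lower on day 14 (3 and 5 without TMM), beside 18.8% and 17.3% of all tested genes, and the median was −0.0020. BCL2L1, a survival gene that EPOR signalling induces in red cell precursors, went from 51.4 ± 45.9 to 364 ± 324 scaled FPKM (log2 fold change 2.93 ± 0.40, adjusted p = 1.13e-06, limma) and was higher in 15 of 15 animals. TFRC, the transferrin receptor, rose from 23.0 ± 6.72 to 51.3 ± 20.8 (1.09 ± 0.20, adjusted p = 2.81e-05, 14 animals), and FAM132B, which encodes the erythroid iron hormone erythroferrone, from 0.240 ± 0.528 to 1.23 ± 1.26 (1.85 ± 0.53, adjusted p = 0.00512, 13 animals). The 15 erythroid markers were all higher in this comparison, with a median of 2.70, and their part in these rises was not tested. OSM, a cytokine of myeloid cells, went the other way, from 9.49 ± 10.3 to 2.09 ± 0.598 (−1.33 ± 0.37, adjusted p = 0.00384, 12 animals), as did PIM2, a survival kinase, from 17.3 ± 4.55 to 13.1 ± 2.07 (−0.37 ± 0.11, adjusted p = 0.00993, 12 animals), both by limma.

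**Figure D5:**
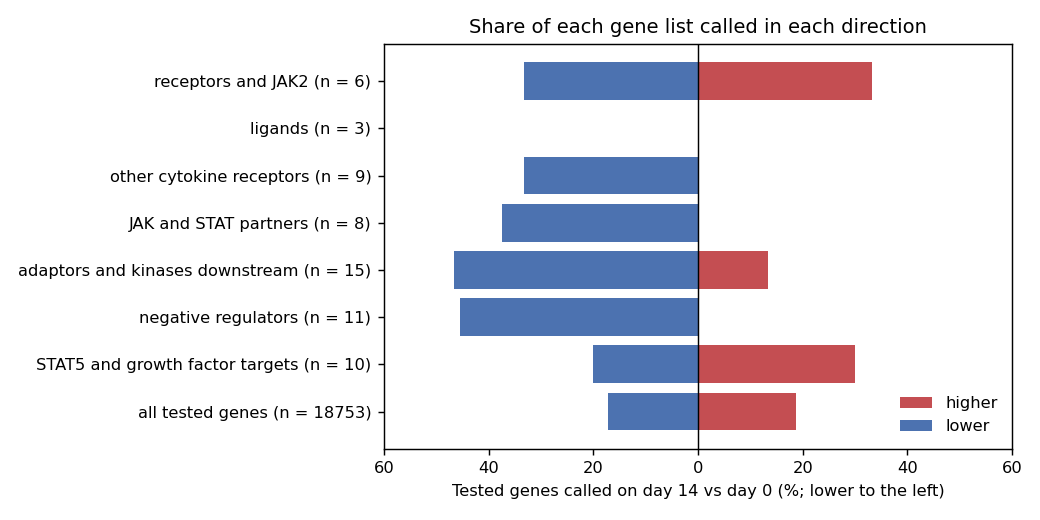
Share of the tested genes among the members and in each of 6 pathway lists that were called higher (right) or lower (left) on day 14 against day 0 by limma (adjusted p-value below 0.05), with the number tested in brackets. Of the pathway lists plotted, adaptors (7 of 15) and negative regulators (5 of 11) reach furthest to the left, and all tested genes have 18.8% higher and 17.3% lower.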

How the data were processed

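Blood was drawn into PAXgene tubes, and stranded libraries depleted of ribosomal and globin RNA were sequenced as paired ends. Per the labels' processing notes the tools were bcl2fastq 2.17, STAR and HTSeq. The authors deposited FPKM, fragments per kilobase of gene relative to the library's fragments on genes, in 1 table per sample, without further scaling. Division of each value by that of 1 fragment gave whole numbers (100% of values, tolerance 0.02 fragments), so fragment counts were recovered, from 13216277 to 31469334 per library.

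Genes with more than 0.5 CPM in at least 3 samples (18753) were tested. The filter limit corresponds to 6.61 fragments in the smallest and 15.7 in the largest library. FPKM were scaled by TMM, computed in R 4.3.3 from the recovered counts, and compared as log2(FPKM + 0.1) with limma 3.58.1, with an intensity trend and 1 mean per time point over all 45 samples. The same step was also run on simulated counts. These had no animal effect and far fewer changed genes than the real data, so that run cannot vouch for the fit here. Alternatives were other pseudocounts (1 and 0.01), no filter, no TMM, median-of-ratios size factors, no trend, the animal as a replicate block, the RNA integrity number listed by the study as a covariate, voom on recovered fragments (chosen after the data were seen), and each animal left out. Ratios used exact sign-flip tests over 15 animals, and correlations with marker lists 100000 permutations.

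Groups came from the label for days after exposure. The animal is named in the labels, so replicate numbers pair the samples. Without the time point means, libraries of 1 animal correlated by a mean r of 0.328, those of different animals by −0.0231. All members were named, with the 3 most similar genes by correlation for each, up to 3 genes per pathway list and direction with the lowest day 14 p-value, and the 2 most abundant or otherwise relevant genes of marker lists. The ligands that failed the filter, the CD34, EGFL7, ANGPT1, CPA3 and FCER1A values and the CSF1R change were named after their values were seen. Members and lists were chosen with earlier results of these data known. No gene coordinates or sequences are given because the gene table at hand belongs to another assembly.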

Additional observations from a re-analysis of the deposited data

How the results depend on the processing

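The number of genes called on day 3 vs. day 0 was 2333 and became 3667 with the animal as a replicate block, 1468 with RNA integrity as a covariate and 3517 in voom with the replicate block. On day 14 vs. day 0 it was 6758, and 3773 with the covariate and 4148 with covariate and block. On day 14 vs. day 3 it was 2541, and 1661 without the filter, 7231 without TMM, 4506 with the replicate block, 1175 with the covariate and 4413 in voom with the replicate block. Without TMM the split on day 14 vs. day 0 was 1465 higher and 7799 lower. Leaving out each animal gave 1436 to 2427, 5959 to 6961 and 857 to 3149 genes, with the lowest last count without animal 8.

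Of the 6 members, 2 were called on day 3, and 1 with a pseudocount of 1. On day 14 it was 4, and 2 with the covariate. Between day 3 and day 14 it was 0, and 3 without TMM (FLT3, CSF3R and JAK2). Leaving out each animal gave 2 to 3, 3 to 4 and 0 to 0 members, and 6 to 8 ratios past the threshold in place of 6. JAK2 on day 14 vs. day 3, at 0.05 with TMM, was −0.34 without it (adjusted p = 0.0159, limma). The replicate block in limma changed 1 member's call, CSF3R on day 3 (adjusted p = 0.0256). EPOR, with 13 fragments in 1 library, has the least depth. The planned edgeR tests were replaced by voom, and their values are not reported. The replicate block also raised calls in marker lists, such as plasmacytoid dendritic cells (1 to 3 on day 3) and platelets (4 to 7 on day 14).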

Other observations

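Other blood cell lists held calls as well, beside 6.12% higher and 6.32% lower of all tested genes on day 3 and 18.8% and 17.3% on day 14. Platelet markers peaked early, with 9 of 9 tested genes higher on day 3 (median log2 fold change 1.48) and 4 of 9 on day 14 (median 0.80), and 3 of 9 lower between day 3 and day 14. Natural killer cell markers were higher for 2 of 7 genes on day 3 and 4 of 7 on day 14 (median 1.14), and the mean of the list rose by 0.90 ± 0.43 (SD, n = 15) on the log2 scale by day 14, in 14 of 15 animals. T cell markers were higher for 3 of 8 genes and B cell markers lower for 2 of 7 on day 14. Without TMM, 2 T cell genes were lower and none of the 8 was higher, 3 natural killer cell and 2 platelet genes were higher, and 5 B cell genes were lower on day 14. Adjusted for RNA integrity, limma called 0 T cell genes and 0 B cell genes on day 14 (2 of each list at an unadjusted p-value under 0.05), 1 platelet gene and 3 natural killer cell genes. The replicate block (animal) gave calls for 7 platelet, 5 natural killer and 4 T cell genes, all higher, and for 2 B cell genes, both lower. On day 3 the natural killer cell calls were 4 with the block, 1 adjusted for RNA integrity and 0 without TMM (2 at an unadjusted p-value under 0.05, limma).

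Myeloid lists other than the neutrophil one showed fewer calls. Of 11 monocyte genes, 3 were higher on day 3, and 1 was higher and 2 lower on day 14. The day 3 count was 1 adjusted for RNA integrity and 0 without TMM (3 at an unadjusted p-value under 0.05, limma). Of 9 plasmacytoid dendritic cell genes, 1 was higher on day 3, and 1 was higher and 2 lower on day 14. Of 7 eosinophil genes, 1 was higher on day 14, ALOX15, which went from 13.4 ± 10.8 to 46.6 ± 48.5 scaled FPKM (log2 fold change 1.74 ± 0.35, adjusted p = 1.2e-04, limma). Without TMM its change was 1.32, and 5 monocyte and 4 plasmacytoid dendritic cell genes were lower on day 14, with none of either list higher. With the replicate block, 3 plasmacytoid dendritic cell genes were higher on day 3, and 4 were higher and 2 lower on day 14, 4 monocyte genes were lower on day 14, and 2 eosinophil genes were higher on each day. With RNA integrity as a covariate limma called 0 monocyte genes on day 14 (4 at an unadjusted p-value under 0.05). ALOX15 was named after its values were seen.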
